A study of Mus musculus with 6 samples.

Results

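The genes described here make, or control the making of, sterols and fatty acids: 33 genes of the 24516 in the deposited count table, chosen by name. Of these, 23 belong to the sterol branch (the enzymes from acetoacetyl-CoA to cholesterol, the sterol-sensing proteins and a sterol carrier) and 10 to the fatty acid branch (synthesis, elongation and desaturation, a phosphatidate phosphatase and the regulator Srebf1). Poly(A) RNA had been sequenced from bulk cultures of iMGT-Myh6-eGFP-MEF, a mouse embryonic fibroblast line with doxycycline-inducible Mef2c, Gata4 and Tbx5, the cardiac transcription factors used to push fibroblasts toward cardiomyocytes. An eGFP reporter in these cells is named for Myh6, the cardiac alpha-myosin heavy chain gene. One day before doxycycline the cells received siRNA targeting H1f0, the gene of linker histone H1.0 (siH1f0), siRNA targeting Junb, the gene of an AP-1 subunit (siJunb), or control siRNA (siControl). All 3 groups carried the same transgenes and received 1 ug/mL doxycycline, so siControl cells were also induced; uninduced cells were not analysed here. Each group held 2 libraries labelled as biological replicates of 1 line, and p-values measure the spread between these libraries, since nothing says whether they came from separate animals or derivations. The labels place the harvest at day 1 of induction, but the description of the series puts it at day 3, after sorting GFP-positive cells; both descriptions cover all groups alike.

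Cholesterol is built from acetyl-CoA through mevalonate, farnesyl diphosphate, squalene and a long series of sterol intermediates, and fatty acids from acetyl-CoA through malonyl-CoA. Most of these enzymes are transcribed under SREBP factors, encoded by Srebf2 (mainly sterol genes) and Srebf1 (mainly fatty acid genes). SREBPs are made as membrane proteins of the endoplasmic reticulum, where INSIG proteins hold the SREBP escort SCAP when sterols are plentiful; when sterols are scarce, SCAP carries SREBP to the Golgi, and its cleaved part enters the nucleus. Insig1 is itself an SREBP target, and fibroblasts in culture use these genes to supply membrane lipid.

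In siH1f0 cells, 4 sterol genes were lower than in siControl cells: Hmgcs1, Srebf2, Sqle and Msmo1. None of the 10 fatty acid genes passed the test. In siJunb cells 10 members passed: Insig1, Hmgcs1, Dhcr7 and Fdps of the sterol branch and Srebf1, Scd1, Fads1 and Fads2 of the fatty acid branch were lower than in siControl cells, and Sc5d and Scap were higher. All these differences were modest, none reaching 1.5-fold. The test was edgeR's quasi-likelihood test on all 6 libraries with Benjamini-Hochberg adjustment over 13427 genes, and a gene was called at an adjusted p under 0.05. The count was 0 higher and 4 lower of 33 for siH1f0 against siControl, where 2.27% of all tested genes were called higher and 4.27% lower. It was 2 higher and 8 lower for siJunb against siControl, where 8.63% of all tested genes were higher and 7.82% lower. It was 4 higher and 6 lower for siH1f0 against siJunb, where the shares over all tested genes were 12.2% higher and 13.8% lower. As shares of the 33 members, 12.1% were called lower and 0% higher for siH1f0 against siControl, 24.2% lower and 6.06% higher for siJunb against siControl, and 18.2% lower and 12.1% higher for siH1f0 against siJunb. Lack of overlap between 2 groups was common among all tested genes, so below it only describes the values. Its share over all tested genes was 50.6% for siH1f0 against siControl, 58.0% for siJunb against siControl and 71.7% for siH1f0 against siJunb. Of the 33 members, 4 lay higher and 14 lower without overlap in siH1f0 against siControl, and 5 and 16 in siJunb against siControl. Between siH1f0 and siJunb it was 13 and 13. In bulk RNA, fewer cells of a type and less RNA per cell cannot be told apart.

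Promoters are shown for 4 sterol genes whose levels the results turn on. The RefSeq table of GRCm38.p6 (the assembly called mm10) held windows for 26 of the 33 members, 34 windows in all, each reaching from 250 bases before a transcript start to 50 after it. Of each window shown, the 250 bases before the start are printed in the direction of transcription. Capitals mark matches, on either strand, to 4 motifs: the sterol regulatory element TCACNCCAC, to which SREBPs bind, the E-box CACGTG, the CCAAT box (ATTGG when it lies on the other strand), which is bound by NF-Y, and the AP-1 site TGANTCA. No match shown overlaps another.
Hmgcs1, chr13:119690101-119690350, plus strand: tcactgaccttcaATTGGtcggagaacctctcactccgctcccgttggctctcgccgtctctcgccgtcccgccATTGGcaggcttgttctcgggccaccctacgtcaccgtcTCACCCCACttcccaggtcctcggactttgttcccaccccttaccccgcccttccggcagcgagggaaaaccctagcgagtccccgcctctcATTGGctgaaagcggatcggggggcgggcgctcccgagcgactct
Msmo1, chr8:64733579-64733828, minus strand: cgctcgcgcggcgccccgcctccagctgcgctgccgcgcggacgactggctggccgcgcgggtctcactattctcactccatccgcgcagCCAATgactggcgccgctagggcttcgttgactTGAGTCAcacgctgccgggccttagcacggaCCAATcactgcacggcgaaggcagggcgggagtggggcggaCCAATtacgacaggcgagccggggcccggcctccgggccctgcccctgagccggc
Srebf2, chr15:82147019-82147268, plus strand: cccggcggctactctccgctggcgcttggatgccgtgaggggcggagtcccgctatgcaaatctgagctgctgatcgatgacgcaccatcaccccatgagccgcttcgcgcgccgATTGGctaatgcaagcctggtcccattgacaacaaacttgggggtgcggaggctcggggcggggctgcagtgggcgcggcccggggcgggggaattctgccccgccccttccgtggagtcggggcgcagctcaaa
Insig1, chr5:28071162-28071411, plus strand: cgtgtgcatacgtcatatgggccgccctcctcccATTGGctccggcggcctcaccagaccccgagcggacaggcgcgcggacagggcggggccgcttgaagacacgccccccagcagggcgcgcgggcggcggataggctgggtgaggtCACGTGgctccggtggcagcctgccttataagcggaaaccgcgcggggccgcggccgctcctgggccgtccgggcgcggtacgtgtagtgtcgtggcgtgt

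The Hmgcs1 window held the only sterol regulatory element found among the members in these letters, at -137 to -129 from the start, together with 4 CCAAT boxes, 3 of them in the bases printed. These letters occurred in 1.24% of all 32851 windows in the table. The Msmo1 window held an AP-1 site at -127 to -121 between CCAAT boxes; of the other members, Dhcr7 alone held one, in 1 of its 3 windows, and 7.81% of all windows did. The Insig1 window held an E-box at -101 to -96, as did windows of Hsd17b7, Sc5d, Dhcr7 and Scap, and 7.15% of all windows held one. The Srebf2 window held 1 CCAAT box. A CCAAT box stood in windows of 20 of the 26 members and in 21 of their 34 windows, against 37.4% of all windows. These matches describe the letters in the windows and no binding was measured; no window in the table was matched to Scd1, Sqle, Fads1, Fdft1, Fdps, Stard4 or Scd2.

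The libraries held 59380780 and 65746378 counts for siH1f0, 63888652 and 48690447 for siJunb, and 85979630 and 65998575 for siControl. Both siRNAs lowered their targets: H1f0 stood at 51.6 and 54.4 CPM in siH1f0, 666 and 651 in siJunb, and 798 and 742 in siControl, and Junb at 30.0 and 31.1 CPM in siH1f0, 10.7 and 8.89 in siJunb, and 39.1 and 35.7 in siControl. H1f0 fell in siH1f0 (log2 -3.86 ± 0.059 SE, adjusted p = 7.12e-09) and Junb in siJunb (log2 -1.93 ± 0.092 SE, adjusted p = 1.60e-05), both against siControl by edgeR's quasi-likelihood test. CPM are counts divided by the TMM-scaled library total, as used throughout for single genes. H1f0 was also lower in siJunb than in siControl (log2 -0.23, adjusted p = 0.021, edgeR's quasi-likelihood test). This call was lost under 5 of the 14 alternatives tried, the 4 that leave out a knockdown library among them. Junb lay lower in siH1f0 than in siControl without overlap but did not pass (log2 -0.29 ± 0.084 SE, adjusted p = 0.0778, edgeR's quasi-likelihood test). That difference passed under 4 of the 14 alternatives. By chi-square per degree of freedom, the siControl libraries differed from each other more than the other pairs did (74.6, against 3.85 in siH1f0 and 3.80 in siJunb). The SD of the log2 ratio between a group's 2 libraries did not set siControl apart (0.312, against 0.284 in siH1f0 and 0.317 in siJunb). In siControl replicate 1, 1.90% of counts fell in the ribosomal precursor Rn45s, against 0.308% to 0.655% in the other 5 libraries. Between the siControl libraries the fatty acid genes had a median log2 ratio of -0.14 (replicate 1 over replicate 2) and the sterol genes 0.0047. Fibroblast markers summed to 12780 to 13283 CPM in siH1f0, 11286 to 11335 in siJunb and 11208 to 13173 in siControl, with Thy1 and Postn under 1 CPM in every library. Most of each sum was Fn1. Against siControl, 1 of the 9 tested rose in each knockdown and 0 fell. Col1a2 rose in siH1f0 (log2 0.34 ± 0.043 SE, adjusted p = 0.00292) and Pdgfra in siJunb (log2 0.27 ± 0.076 SE, adjusted p = 0.0442), by edgeR's quasi-likelihood test. Between the knockdowns, 2 of the 9 were higher and 3 lower in siH1f0. Of 8 adipocyte markers, 7 were under 1 CPM, Adipoq and Lep were at 0, and the summed level was 3.77 to 4.25 CPM in siH1f0, 3.75 to 4.12 in siJunb and 4.01 to 4.23 in siControl. All 6 hepatocyte markers were under 1 CPM in every library. Macrophage markers summed to 3.09 to 3.53 CPM in siH1f0, 2.56 to 2.87 in siJunb and 2.46 to 3.37 in siControl, with Ptprc at 0; of these Csf1r, under 1 CPM in every library, was higher in siJunb than in siControl (log2 1.39 ± 0.35 SE, adjusted p = 0.0276, edgeR's quasi-likelihood test). The 6 cardiac markers summed to 148 to 156 CPM in siH1f0, 116 to 117 in siJunb and 135 to 153 in siControl. Most of that sum was Tnnt2, which passed in no comparison. Actc1 (log2 -2.43 ± 0.099 SE, adjusted p = 7.86e-06) and Myl7 (log2 -1.63 ± 0.11 SE, adjusted p = 9.28e-05) fell in siJunb against siControl by edgeR's quasi-likelihood test, and no cardiac marker passed in siH1f0 against siControl. The part of these markers in the differences below was not tested.

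All 33 members passed the filter on low counts, and their mean levels ran from 2.87 CPM (Tm7sf2) to 732 CPM (Scd2), with a median of 53.6 CPM against 31.2 CPM over all tested genes. Levels between genes were compared per length, as TPM, in which counts per base are scaled to the same sum in each library, from the deposited gene lengths. In siControl cells Scd2, a stearoyl-CoA desaturase that makes monounsaturated fatty acids, stood highest at 370 ± 36.3 TPM (SD, n = 2). The desaturases Fads1 and Fads2, which work on polyunsaturated fatty acids, followed at 202 ± 5.66 and 161 ± 9.05 TPM, and Acly, which makes cytosolic acetyl-CoA from citrate, at 156 ± 14.8 TPM. Fads2 and Acly did not differ beyond their spread. Srebf2, at 132 ± 10.4 TPM, was the highest sterol gene, followed by Msmo1 at 102 ± 0.652 TPM and Cyp51, the lanosterol demethylase, at 94.1 ± 5.95 TPM. Srebf1 at 82.3 ± 0.033 TPM and Fasn, the fatty acid synthase, at 80.8 ± 9.56 TPM did not differ beyond their spread. The lowest were Idi1 (13.2 ± 1.99 TPM), Lpin1 (6.32 ± 0.415 TPM) and Tm7sf2 (5.53 ± 0.0268 TPM). The order was led by the same gene in each group, with Scd2 at 351 ± 5.58 TPM in siH1f0 and 353 ± 0.618 TPM in siJunb.

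**Figure D1:**
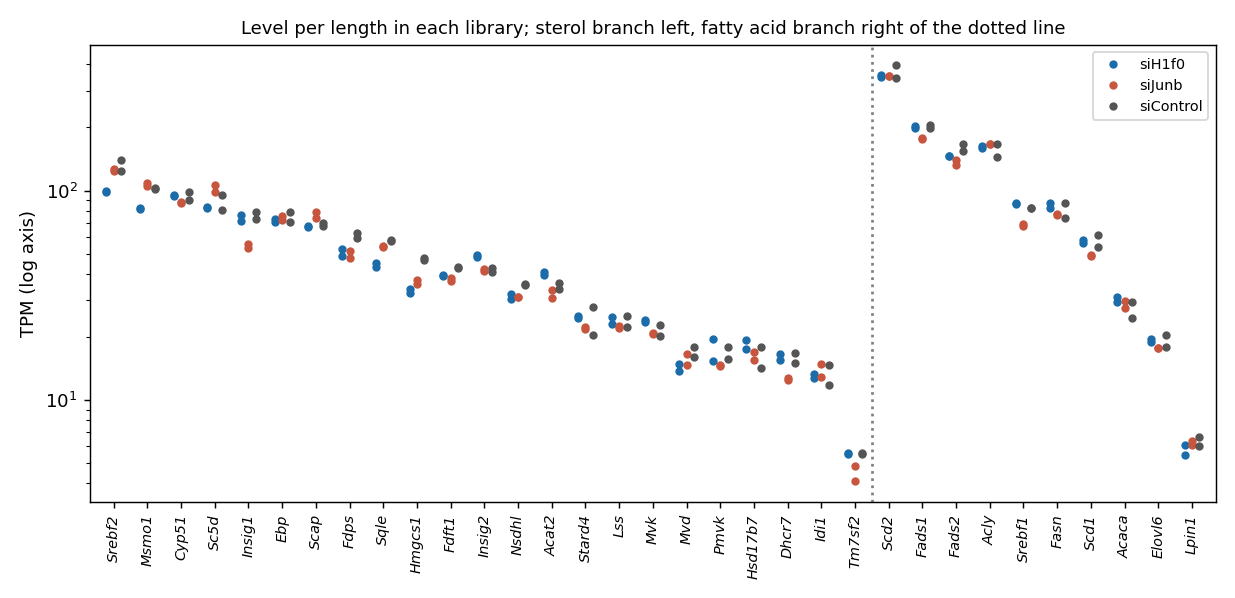
Level of each of the 33 genes in TPM on a log axis, with a point for each library of siH1f0, siJunb and siControl. Sterol genes stand left and fatty acid genes right of the dotted line, each ordered by the siControl mean, from Srebf2 (132 TPM) to Tm7sf2 (5.53 TPM) and from Scd2 (370 TPM) to Lpin1 (6.32 TPM).

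Of the 7 early mevalonate enzymes, Hmgcs1 had the largest log2 change in both comparisons with siControl. Hmgcs1 (chr13:119690351-119708260) encodes the cytosolic HMG-CoA synthase, which joins acetoacetyl-CoA and acetyl-CoA. It stood at 44.3 and 42.6 CPM in siH1f0, 49.0 and 51.6 in siJunb, and 63.4 and 62.5 in siControl. The 3 groups did not overlap: siH1f0 was lowest, siJunb lay between, and siControl was highest. By edgeR's quasi-likelihood test Hmgcs1 fell in siH1f0 against siControl (log2 -0.54 ± 0.055 SE, adjusted p = 0.00104), in siJunb against siControl (log2 -0.32 ± 0.055 SE, adjusted p = 0.00614) and in siH1f0 against siJunb (log2 -0.21 ± 0.055 SE, adjusted p = 0.0229). The siH1f0 call held under all 14 alternatives. The siJunb call was lost without siJunb replicate 1 or 2 (adjusted p up to 0.104), and the call between the knockdowns with scaling by total counts and without any 1 of the 4 knockdown libraries (adjusted p up to 0.204).

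Acat2, whose product condenses acetyl-CoA to acetoacetyl-CoA, stood at 29.8 and 31.1 CPM in siH1f0, 24.5 and 26.8 in siJunb, and 26.9 and 27.6 in siControl. Its siH1f0 libraries were highest and its siJunb libraries lowest, without overlap. Acat2 was higher in siH1f0 than in siJunb (log2 0.25 ± 0.067 SE, adjusted p = 0.0254, edgeR's quasi-likelihood test), a call lost without any 1 of the 4 knockdown libraries (adjusted p up to 0.221), and passed in neither comparison with siControl. Acat3, a related neighbouring gene, had 16 to 37 counts per library, and how reads matching several places were counted is not given. Fdps, which makes farnesyl diphosphate, stood at 28.2 and 26.3 CPM in siH1f0, 26.6 and 29.0 in siJunb, and 35.2 and 31.8 in siControl. Both knockdowns lay below siControl and overlapped each other. Fdps fell in siJunb (log2 -0.27 ± 0.076 SE, adjusted p = 0.0415, edgeR's quasi-likelihood test), a call lost without any 1 of the 4 knockdown libraries (up to 0.291); in siH1f0 it had a log2 change of -0.30 ± 0.075 SE, adjusted p = 0.0517 by the same test, which passed under 4 of the 14 alternatives. The mevalonate kinases and decarboxylase Mvk, Pmvk and Mvd and the isomerase Idi1 passed in no comparison; their log2 changes ran from -0.28 (Mvd) to 0.10 (Mvk) for siH1f0 and from -0.18 (Pmvk) to 0.11 (Idi1) for siJunb, both against siControl.

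**Figure D2:**
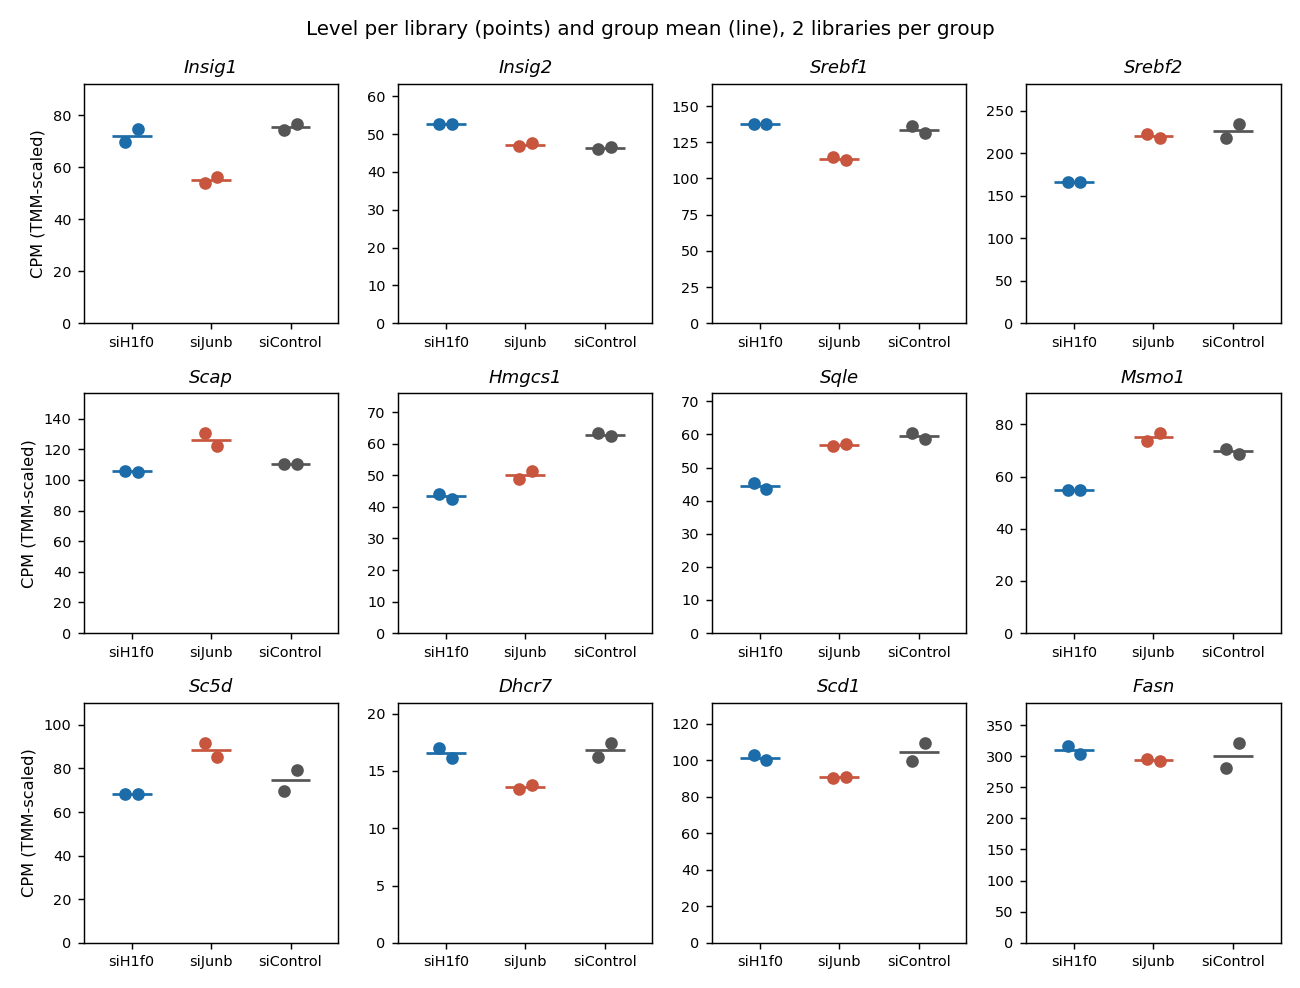
CPM per library of 12 genes in siH1f0, siJunb and siControl; each point is a library and each line a group mean. Srebf2, Sqle and Msmo1 were low in siH1f0, Insig1 and Srebf1 in siJunb, and Hmgcs1 in both knockdowns.

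Of the 11 squalene and sterol enzymes, 2 fell in siH1f0 and 1 rose and 1 fell in siJunb. Sqle (chr15:59315092-59331193) encodes squalene epoxidase, which oxidises squalene before ring closure and is a rate-limiting enzyme of the later pathway. It stood at 45.3 and 43.5 CPM in siH1f0, 56.6 and 57.1 in siJunb, and 60.3 and 58.8 in siControl. Both siH1f0 libraries lay below all others, and siJunb lay just under siControl. Sqle fell in siH1f0 against siControl (log2 -0.42 ± 0.052 SE, adjusted p = 0.00274) and against siJunb (log2 -0.36 ± 0.053 SE, adjusted p = 0.0018), while siJunb against siControl gave log2 -0.067 ± 0.052 SE, adjusted p = 0.416, all by edgeR's quasi-likelihood test. Against siControl the call was lost without siH1f0 replicate 1 or 2 (adjusted p up to 0.073); against siJunb it held under all 14 alternatives.

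Msmo1 (chr8:64718123-64733578) encodes a methylsterol monooxygenase, which takes part in the removal of methyl groups from the sterol ring. It stood at 54.8 and 54.7 CPM in siH1f0, 73.7 and 76.5 in siJunb, and 70.6 and 68.8 in siControl. The siH1f0 libraries were lowest and the siJunb libraries highest, with siControl between and no overlap. Msmo1 fell in siH1f0 against siControl (log2 -0.35 ± 0.051 SE, adjusted p = 0.00608) and against siJunb (log2 -0.45 ± 0.051 SE, adjusted p = 0.000467), by edgeR's quasi-likelihood test, and siJunb against siControl gave log2 0.11 ± 0.051 SE, adjusted p = 0.187. Against siControl the call was lost without siH1f0 replicate 1 or 2 (adjusted p up to 0.115); against siJunb it held under all 14 alternatives.

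Sc5d, the sterol desaturase of a late step, stood at 68.4 and 68.4 CPM in siH1f0, 91.6 and 85.3 in siJunb, and 69.7 and 79.3 in siControl. The siJunb libraries were highest, the siControl libraries lay below them, and the siH1f0 libraries were lowest. Sc5d rose in siJunb against siControl (log2 0.25 ± 0.070 SE, adjusted p = 0.0433) and was lower in siH1f0 than in siJunb (log2 -0.37 ± 0.070 SE, adjusted p = 0.00568), by edgeR's quasi-likelihood test. With scaling by total counts or a minimum mean of 5 CPM the siJunb call against siControl was lost, as it was without any 1 of the 4 knockdown libraries (adjusted p up to 0.295), and the call between the knockdowns was lost without either siH1f0 library or siJunb replicate 1 (up to 0.0741). Dhcr7, the reductase that yields cholesterol in the last step of a route, moved the other way. It stood at 17.0 and 16.2 CPM in siH1f0, 13.4 and 13.7 in siJunb, and 16.2 and 17.4 in siControl. The siJunb libraries lay below the rest, and siH1f0 and siControl overlapped. Dhcr7 fell in siJunb against siControl (log2 -0.31 ± 0.075 SE, adjusted p = 0.0265) and was higher in siH1f0 than in siJunb (log2 0.29 ± 0.076 SE, adjusted p = 0.0232), by edgeR's quasi-likelihood test; both calls were lost without any 1 of the 4 knockdown libraries (adjusted p up to 0.183 and 0.169).

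The other 7 enzymes between squalene and cholesterol passed in no comparison. Fdft1, the squalene synthase, stood at 52.9 and 53.8 CPM in siH1f0, 52.6 and 54.2 in siJunb, and 60.9 and 58.4 in siControl. Nsdhl, which acts with Msmo1 on the methyl groups, stood at 24.5 and 26.3 CPM in siH1f0, 26.4 and 26.4 in siJunb, and 29.9 and 29.2 in siControl. In both genes all 4 knockdown libraries lay below both siControl libraries, and in siH1f0 against siControl the log2 changes were -0.16 ± 0.053 SE, adjusted p = 0.107 and -0.22 ± 0.062 SE, adjusted p = 0.0714 (edgeR's quasi-likelihood test). Fdft1 shares 18.3% of its annotated exon bases with Ctsb on the opposite strand and the strand setting of the counts is not given, so reads of the pair may mix. Lss, the lanosterol synthase, Cyp51, Tm7sf2, Hsd17b7 and Ebp had log2 changes between -0.10 (Ebp) and 0.17 (Hsd17b7) for siH1f0 and between -0.28 (Tm7sf2) and 0.053 (Hsd17b7) for siJunb, both against siControl. Tm7sf2, at 2.33 to 3.14 CPM, shares 12.1% of its exon bases with Vps51. In all, 6 members share exon bases with another gene of the table, and the other 4 share 3.76% or less.

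Of the 5 genes for sterol sensing and transport, Srebf2 fell in siH1f0, and Insig1 fell and Scap rose in siJunb. Srebf2 (chr15:82147269-82205379) stood at 166 and 166 CPM in siH1f0, 223 and 218 in siJunb, and 218 and 235 in siControl. The siH1f0 libraries lay below all others, and siJunb and siControl overlapped. Srebf2 fell in siH1f0 against siControl (log2 -0.45 ± 0.051 SE, adjusted p = 0.00186) and against siJunb (log2 -0.41 ± 0.051 SE, adjusted p = 0.000811), by edgeR's quasi-likelihood test, and both calls held under all 14 alternatives; siJunb against siControl gave log2 -0.038 ± 0.051 SE, adjusted p = 0.646, with a 95% interval of -0.20 to 0.12. Insig1 (chr5:28071412-28078662) stood at 69.5 and 74.7 CPM in siH1f0, 53.8 and 56.3 in siJunb, and 74.2 and 76.7 in siControl. The siJunb libraries lay below all others, and siH1f0 and siControl overlapped. Insig1 fell in siJunb against siControl (log2 -0.46 ± 0.058 SE, adjusted p = 0.00193) and was higher in siH1f0 than in siJunb (log2 0.39 ± 0.058 SE, adjusted p = 0.00187), by edgeR's quasi-likelihood test, and both calls held under all 14 alternatives. In siH1f0 against siControl Insig1 had a log2 change of -0.066 ± 0.057 SE, adjusted p = 0.539, with a 95% interval of -0.25 to 0.12.

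Insig2, the related retention protein, stood at 52.8 and 52.6 CPM in siH1f0, 46.8 and 47.7 in siJunb, and 46.2 and 46.7 in siControl. Its siH1f0 libraries lay above all others, but no comparison passed edgeR's quasi-likelihood test on all 6 libraries. By this test siH1f0 against siControl gave log2 0.18 ± 0.051 SE, adjusted p = 0.0705, and siH1f0 against siJunb log2 0.16 ± 0.051 SE, adjusted p = 0.0518. The first passed under 2 of the 14 alternatives, both without a siControl library, and the second under 6 of the 14. For siJunb against siControl the same test gave log2 0.025 ± 0.051 SE, adjusted p = 0.775. That change turned to -0.011 with scaling by total counts. Within a library, the ratio of Insig1 to Insig2 CPM was 1.32 and 1.42 in siH1f0, 1.15 and 1.18 in siJunb, and 1.61 and 1.64 in siControl. It was highest in siControl and lowest in siJunb, with no overlap between groups. Scap, the SREBP escort (chr9:110333288-110384949), stood at 106 and 105 CPM in siH1f0, 130.4 and 122 in siJunb, and 111 and 110.3 in siControl. The siJunb libraries were highest, and siH1f0 lay just under siControl. Scap rose in siJunb against siControl (log2 0.19 ± 0.051 SE, adjusted p = 0.0354) and was lower in siH1f0 than in siJunb (log2 -0.26 ± 0.051 SE, adjusted p = 0.00694), by edgeR's quasi-likelihood test. The siJunb call against siControl was lost with scaling by total counts and without any 1 of the 4 knockdown libraries (adjusted p up to 0.306), and the call between the knockdowns without either siH1f0 library or siJunb replicate 1 (up to 0.107). Stard4, a sterol carrier, stood at 27.4 and 27.0 CPM in siH1f0, 25.7 and 25.1 in siJunb, and 23.4 and 30.7 in siControl and passed in no comparison; its siControl libraries spanned the range of the others.

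Srebf1 (chr11:60199084-60224186), the regulator of the fatty acid branch, fell in siJunb. It stood at 138 and 137 CPM in siH1f0, 115 and 113 in siJunb, and 136 and 131 in siControl. The siJunb libraries lay below all others, and siH1f0 lay just above siControl. Srebf1 fell in siJunb against siControl (log2 -0.23 ± 0.047 SE, adjusted p = 0.013) and was higher in siH1f0 than in siJunb (log2 0.27 ± 0.047 SE, adjusted p = 0.00357), by edgeR's quasi-likelihood test; siH1f0 against siControl gave log2 0.042 ± 0.047 SE, adjusted p = 0.643. Both calls were lost without any 1 of the 4 knockdown libraries (adjusted p up to 0.152 and 0.0639). Reads of the Srebf1 isoforms, which start at different promoters, were counted together. The ratio of Srebf1 to Srebf2 CPM within a library was 0.829 and 0.829 in siH1f0, 0.515 and 0.518 in siJunb, and 0.625 and 0.559 in siControl. The groups did not overlap, with siH1f0 highest and siJunb lowest.

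**Figure D3:**
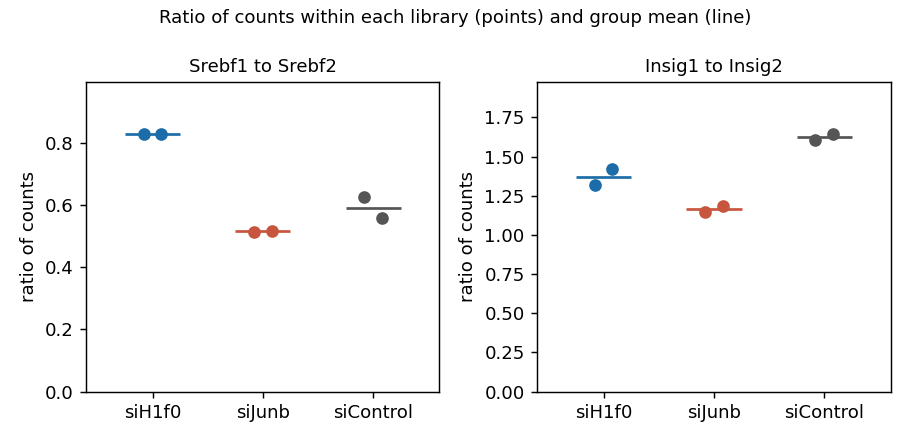
Ratio of Srebf1 to Srebf2 CPM and of Insig1 to Insig2 CPM in each library of siH1f0, siJunb and siControl. The Srebf1 to Srebf2 ratio was near 0.829 in both siH1f0 libraries, and both ratios were lowest in siJunb.

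The enzymes that build fatty acids did not pass in any comparison. Fasn stood at 316 and 303 CPM in siH1f0, 295 and 292 in siJunb, and 281 and 321 in siControl. The siControl libraries spanned all the others, and Fasn had log2 changes of 0.042 ± 0.064 SE, adjusted p = 0.749 for siH1f0 and -0.036 ± 0.064 SE, adjusted p = 0.736 for siJunb against siControl (edgeR's quasi-likelihood test). Their 95% intervals were -0.16 to 0.25 for siH1f0 and -0.24 to 0.17 for siJunb. Acly stood at 265 and 262 CPM in siH1f0, 284 and 284 in siJunb, and 246 and 271 in siControl. Acaca, the acetyl-CoA carboxylase that makes malonyl-CoA, stood at 102 and 97.5 CPM in siH1f0, 103 and 95.4 in siJunb, and 85.2 and 97.5 in siControl. Elovl6, which elongates saturated fatty acids, stood at 42.6 and 41.3 CPM in siH1f0, 40.4 and 40.6 in siJunb, and 40.6 and 44.8 in siControl. For these 3 enzymes the log2 changes ran from -0.025 (Elovl6) to 0.13 (Acaca) for siH1f0 and from -0.076 (Elovl6) to 0.14 (Acly) for siJunb, both against siControl. Lpin1, a phosphatidate phosphatase of glycerolipid synthesis, stood at 12.7 and 11.6 CPM in siH1f0, 14.0 and 13.4 in siJunb, and 13.2 and 14.0 in siControl and passed in no comparison.

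Of the 4 desaturases, 3 fell in siJunb and none passed in siH1f0. Scd1, a stearoyl-CoA desaturase, stood at 103 and 99.9 CPM in siH1f0, 90.4 and 91.1 in siJunb, and 99.3 and 109 in siControl. Fads1 stood at 256 and 253 CPM in siH1f0, 235 and 235 in siJunb, and 262 and 263 in siControl. Fads2 stood at 80.7 and 80.9 CPM in siH1f0, 81.1 and 76.3 in siJunb, and 89.0 and 93.0 in siControl. In Scd1 and Fads1 the siJunb libraries lay below all others; in Fads2 all 4 knockdown libraries lay below siControl and overlapped each other. By edgeR's quasi-likelihood test, siJunb against siControl gave log2 -0.20 ± 0.058 SE, adjusted p = 0.0472 for Scd1, -0.16 ± 0.043 SE, adjusted p = 0.0388 for Fads1 and -0.21 ± 0.054 SE, adjusted p = 0.0317 for Fads2. These calls were each lost without any 1 of the 4 knockdown libraries (adjusted p up to 0.256, 0.263 and 0.274), and that of Scd1 also with limma-voom. In siH1f0 against siControl Fads2 had a log2 change of -0.17 ± 0.053 SE, adjusted p = 0.0981, Fads1 -0.041 ± 0.043 SE, adjusted p = 0.612 and Scd1 -0.040 ± 0.058 SE, adjusted p = 0.727 by the same test. Scd2 stood at 706 and 696 CPM in siH1f0, 738 and 741 in siJunb, and 718 and 795 in siControl and passed in no comparison. The related genes Scd3 and Scd4 had 11 to 20 counts per library.

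**Figure D4:**
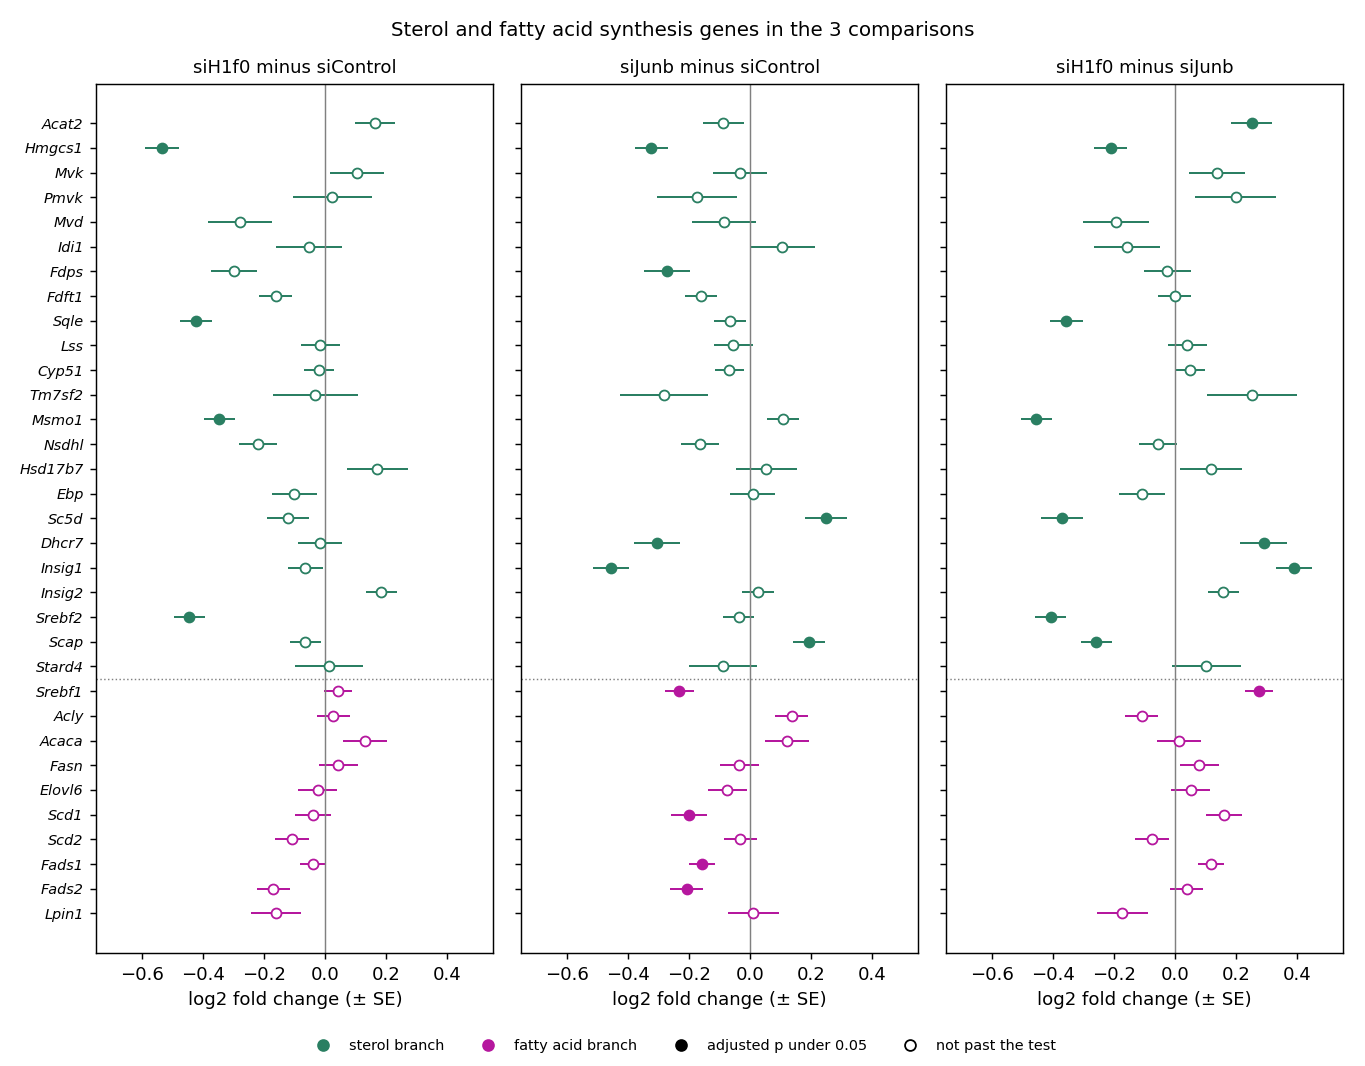
Log2 fold change ± SE of the 33 genes in siH1f0 against siControl, siJunb against siControl and siH1f0 against siJunb (edgeR, 6 libraries), sterol genes in green and fatty acid genes in magenta, filled where the adjusted p was under 0.05. Filled points number 4, 10 and 10, and the fatty acid genes have 0, 4 and 1 of them.

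For siH1f0 against siControl, the members called in the fit to all 6 libraries were all sterol genes. In that fit 4 of 23 sterol genes fell (Hmgcs1, Srebf2, Sqle and Msmo1, log2 -0.54 to -0.35) and 0 rose, and 0 of 10 fatty acid genes passed. Each fit without a siControl library also called fatty acid genes, and members that rose. The median log2 change was -0.066 over the sterol genes, 17 of which were negative, and -0.033 over the fatty acid genes, against 0.0034 over all tested genes. Summed over the sterol branch the level was 1125 and 1124 CPM in siH1f0, 1220 and 1225 in siJunb, and 1242 and 1278 in siControl. The siH1f0 sums lay below all others. Over the fatty acid branch it was 2023 and 1982 CPM in siH1f0, 1995 and 1981 in siJunb, and 1970 and 2140 in siControl, and siControl spanned the other groups. Among the 4880 genes at or above the members' median level, 6.15% were called lower and 2.68% higher in siH1f0. Without siH1f0 replicate 1 or 2 the count of members called was 2 (Hmgcs1 and Srebf2) in place of 4, without siControl replicate 1 it was 10, and without siControl replicate 2 it was 17.

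For siJunb against siControl, members of both branches were called: 2 sterol genes rose (Sc5d and Scap), 4 fell (Insig1, Hmgcs1, Dhcr7 and Fdps), and 4 fatty acid genes fell (Srebf1, Scd1, Fads1 and Fads2). Of the sterol genes 8.70% were called higher and 17.4% lower, and of the fatty acid genes 0% higher and 40% lower. Over all tested genes the shares were 8.63% higher and 7.82% lower, so the sterol share called higher was near that of all genes. Called changes ran from -0.46 (Insig1) to 0.25 (Sc5d) on the log2 scale. The median log2 change was -0.068 over the sterol genes and -0.056 over the fatty acid genes, against 0.0024 over all tested genes. Among the 4880 genes at or above the members' median level, 7.42% were called lower and 14.6% higher in siJunb. With scaling by total counts the calls over all genes split into 884 higher and 1369 lower, against 1159 and 1050 with TMM. Insig1 alone passed under every alternative; the count of members called was 2 with only the 4 libraries compared (Insig1 and Hmgcs1), 1 without siJunb replicate 1 or 2, 2 without siH1f0 replicate 1 or 2, 18 without siControl replicate 1 and 17 without siControl replicate 2.

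For siH1f0 against siJunb, the sterol branch split: Msmo1, Srebf2, Sqle, Sc5d, Scap and Hmgcs1 were lower in siH1f0, and Insig1, Dhcr7 and Acat2 were higher, as was Srebf1 of the fatty acid branch. The median log2 difference was -0.0018 over the sterol genes and 0.044 over the fatty acid genes, against 0.00071 over all tested genes. At or above the members' median level, 21.5% of genes were called lower and 12.3% higher. Of the 33 members 18.2% were lower and 12.1% higher, so neither share was above that of genes at this level. With scaling by total counts the calls over all genes split into 2222 higher and 1340 lower, against 1637 and 1847 with TMM. Msmo1, Srebf2, Sqle and Insig1 passed under all 14 alternatives; the count of members called was 4 without siH1f0 replicate 1 or 2 or siJunb replicate 1, 6 without siJunb replicate 2, 17 without siControl replicate 1 and 16 without siControl replicate 2. The comparisons share libraries (siControl serves both knockdowns), so their values stand side by side and are not independent.

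Genes that work beside the members were grouped in 6 lists, with 56 genes tested. Against siControl, 2 of the 56 were called in siH1f0 (3.57%, against 6.55% of all tested genes) and 9 in siJunb (16.1%, against 16.5% of all tested genes), so neither share was above that over all genes. Between the knockdowns 16 of the 56 were called (28.6%, against 25.9% of all tested genes). The lists' median log2 changes ran from -0.079 (glycerolipid synthesis) to 0.098 (isoprenoid branch) for siH1f0 and from -0.0047 (sterol efflux and LXR) to 0.17 (isoprenoid branch) for siJunb, against 0.0034 and 0.0024 over all tested genes. Of 10 other SREBP targets, 1 rose and 1 fell in siH1f0 against siControl: Elovl5, a fatty acid elongase (274 and 267 CPM in siH1f0, 237 and 249 in siJunb, and 231 and 234 in siControl; log2 0.22 ± 0.047 SE, adjusted p = 0.0302), and Idh1, the cytosolic isocitrate dehydrogenase (72.8 and 72.7 CPM in siH1f0, 88.5 and 86.7 in siJunb, and 89.0 and 90.8 in siControl; log2 -0.30 ± 0.048 SE, adjusted p = 0.00832), by edgeR's quasi-likelihood test. The Elovl5 call was lost without any 1 of the 4 knockdown libraries, with only the 4 libraries compared and with the replicate block. The Idh1 call was lost without siH1f0 replicate 1 or 2. When each library was left out, their log2 changes ran from 0.20 to 0.24 and from -0.32 to -0.30. In siJunb, Me1, malic enzyme (log2 0.26 ± 0.052 SE, adjusted p = 0.0132), and Aacs, acetoacetyl-CoA synthetase (log2 0.19 ± 0.053 SE, adjusted p = 0.0439), rose and Acsl3, an acyl-CoA synthetase (log2 -0.22 ± 0.050 SE, adjusted p = 0.0189), fell among these 10, by the same test. Between the knockdowns, 2 of the 10 were higher in siH1f0 and 4 lower, with Acsl3 at the top (log2 0.34 ± 0.050 SE, adjusted p = 0.00173) and Aacs at the bottom (log2 -0.30 ± 0.053 SE, adjusted p = 0.0039), by the same test. The siJunb calls of Me1, Aacs and Acsl3 against siControl were lost without siJunb replicate 1 or 2. When each library was left out, their log2 changes ran from 0.24 to 0.27, 0.17 to 0.20 and -0.25 to -0.20. The Aacs and Acsl3 calls were also lost without either siH1f0 library and with only the 4 libraries compared. Scaling by total counts, a minimum mean of 5 CPM and the replicate block each lost the Aacs call too, 8 of the 14 alternatives in all. The Aacs call between the knockdowns was lost without siH1f0 replicate 2 or siJunb replicate 1.

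Of 6 genes for SREBP processing and INSIG turnover, 0 passed in siH1f0 and Ube2g2, a ubiquitin-conjugating enzyme, rose in siJunb (log2 0.23 ± 0.048 SE, adjusted p = 0.0155, edgeR's quasi-likelihood test). Rnf145, a ubiquitin ligase of the endoplasmic reticulum, stood at 96.9 and 96.7 CPM in siH1f0, 78.7 and 78.5 in siJunb, and 84.3 and 86.7 in siControl. It was higher in siH1f0 than in siJunb without overlap (log2 0.30 ± 0.048 SE, adjusted p = 0.00249, edgeR's quasi-likelihood test), under all 14 alternatives. Of 9 genes of the isoprenoid side branches, 0 passed in siH1f0 and Nus1, a subunit of the enzyme for dolichol, rose in siJunb (log2 0.23 ± 0.045 SE, adjusted p = 0.0126, the same test). Of 9 sterol efflux and storage genes, 8 were tested and 0 passed against siControl in either knockdown; Abca1, the cholesterol exporter, was lower in siH1f0 than in siJunb (log2 -0.47 ± 0.12 SE, adjusted p = 0.0227, edgeR's quasi-likelihood test). The Ube2g2, Nus1 and Abca1 calls given here were lost without any 1 of the 4 knockdown libraries (adjusted p up to 0.153, 0.14 and 0.163).

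Of 9 genes of glycerolipid synthesis, 0 passed in siH1f0, and in siJunb Gpat4 fell and Agpat1 rose, both acyltransferases of early steps. Gpat4 stood at 191 and 185 CPM in siH1f0, 145 and 147 in siJunb, and 203 and 194 in siControl. The siJunb libraries lay below all others. Gpat4 fell in siJunb against siControl (log2 -0.45 ± 0.048 SE, adjusted p = 0.000915) and was higher in siH1f0 than in siJunb (log2 0.37 ± 0.048 SE, adjusted p = 0.000978), by edgeR's quasi-likelihood test, under all 14 alternatives. Agpat1 rose in siJunb against siControl (log2 0.28 ± 0.058 SE, adjusted p = 0.0148, the same test). Of 14 genes of fatty acid oxidation, 0 passed in siH1f0, and Acadm, a mitochondrial acyl-CoA dehydrogenase (log2 0.29 ± 0.052 SE, adjusted p = 0.00806), and Acaa2, a thiolase (log2 0.26 ± 0.059 SE, adjusted p = 0.0196), rose in siJunb, by the same test. The Agpat1, Acadm and Acaa2 calls were lost without siJunb replicate 1 or 2. Those of Agpat1 and Acaa2 were also lost without either siH1f0 library and with only the 4 libraries compared. When each library was left out, the 3 log2 changes ran from 0.22 to 0.33, 0.24 to 0.34 and 0.18 to 0.34. Of the calls in the 6 lists of companion genes against siControl, 0 of 2 in siH1f0 and 1 of 9 in siJunb (Gpat4) passed under all alternatives; between the knockdowns it was 3 of 16 (Rnf145, Acsl3 and Gpat4).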

How the data were processed

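The authors deposited raw counts of reads by gene symbol as 1 table of 24516 genes by 6 libraries; all 6 columns were mapped to samples by name. The submitters' processing notes list HISAT2, Subread and featureCounts and, as the build, mm10; no version, annotation release, strand setting or handling of multiply matching reads was given in those notes. The deposited table also gives a gene length in bases (in no other unit), used here for TPM. The fit used edgeR 4.0.16 under R 4.3.3: TMM scaling (factors 0.979 to 1.02), the filterByExpr filter (13427 genes left), and the quasi-likelihood F test with group as the only term on all 6 libraries, which leaves 3 residual degrees of freedom. P-values were adjusted over all 13427 genes by Benjamini and Hochberg. CPM and TPM were computed from the counts. An error is the SD of a group's libraries or the SE of a log2 fold change, and 95% intervals use 3 degrees of freedom. The test also draws each gene's spread toward that of all genes. The intervals are therefore wider than the test and can include no change for a called gene. The median tested gene had 1484 to 2682 counts per library. An exact two-sided permutation test of 2 libraries against 2 cannot go below p = 0.333. Before adjustment, p was under 0.05 for 3060 genes in siH1f0 against siControl, 4263 in siJunb against siControl and 5163 in siH1f0 against siJunb. The fit was checked on simulated data.

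The rule for naming genes allowed every member. It asked for values per library for members called in any comparison and for Insig1, Insig2, Srebf1, Srebf2, Scap, Fasn and Scd1. Of companion lists it named at most 3 called genes per list and comparison, by smallest p. The members and lists were chosen with earlier results of these data known. Companion lists were SREBP processing, other SREBP targets, isoprenoid branch, sterol efflux and LXR, glycerolipid synthesis and fatty acid oxidation. Gene positions come from the RefSeq gene table of GRCm38.p6, which held all 33 members and 23591 of the symbols, and overlaps from GENCODE exons of the same assembly. In all 14 alternatives were run: RLE scaling, scaling by total counts, dropping the count filter, a minimum mean of 5 CPM, DESeq2 1.42.0, limma-voom (limma 3.58.1), a fit to only the 4 libraries compared, a replicate block, and 6 fits that each leave out 1 library. A fit without 1 library takes the spread of its group from the rest.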

Additional observations from a re-analysis of the deposited data

How the results depend on the processing

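Where members were called, no alternative turned their direction (0 of the called values over 14 alternatives in each comparison); over all genes followed, 895 values kept direction and side of the threshold, 191 lost the threshold, 37 gained it and 11 changed sign. Genes called over all 13427 moved beyond 1.5 times as follows. For siH1f0 against siControl, 879 became 1921 with no count filter, 325 with only the 4 libraries compared, 550 with the replicate block, and 116 to 4932 when each library was left out. For siJunb against siControl, 2209 became 1094 with only the 4 libraries compared and 352 to 5521 when each library was left out. For siH1f0 against siJunb, 3484 became 6416 with only the 4 libraries compared and 1304 to 6435 when each library was left out. Members called moved for siH1f0 against siControl, 4 becoming 7 with no count filter and 2 to 17 when each library was left out. For siJunb against siControl, 10 became 2 with only the 4 libraries compared, 4 with the replicate block and 1 to 18 when each library was left out. For siH1f0 against siJunb, 10 became 16 with only the 4 libraries compared and 4 to 17 when each library was left out. The cause was not tested; counts were lowest without a knockdown library and highest without a siControl library in every comparison. With scaling by total counts the median log2 change over all genes was -0.033 for siJunb against siControl and 0.051 for siH1f0 against siJunb, and small uncalled changes turned sign: Insig2 in siJunb against siControl was -0.011 and Fdps in siH1f0 against siJunb 0.024. When each library was left out, some log2 values not called in the fit to all 6 libraries crossed 0. In siH1f0 against siControl these were Dhcr7 (-0.071 to 0.029), Fasn (-0.050 to 0.13) and Scd1 (-0.11 to 0.024). In siJunb against siControl they were Srebf2 (-0.091 to 0.0087) and Fasn (-0.13 to 0.053). Between siH1f0 and siJunb they were Fdps (-0.089 to 0.035) and Fads2 (-0.0060 to 0.082). In both knockdowns the Fasn change against siControl was negative without siControl replicate 1 and positive without siControl replicate 2. Replicate numbers did not pair the libraries: deviations of same-numbered libraries correlated at -0.041, 0.048 and 0.063 over 13427 genes in the 3 comparisons, and under the replicate block Fdps, Sc5d, Scap, Scd1, Fads1 and Fads2 lost their siJunb calls. Each group had 2 libraries, which left 3 residual degrees of freedom. The lowest member, Tm7sf2, had 131 to 273 counts per library; the part of depth was not tested.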
